A study of Pavo cristatus and Gallus gallus and Meleagris gallopavo with 54 samples.

Results

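The cytosolic ribosomal protein genes of chicken, quail, duck and zebra finch fibroblasts were taken by symbol, as RPS or RPL with a number, RPSA, and RPLP0 to RPLP2. RPS6, RPS23, RPL17 and RPL37 were left out. A gene was represented by its promoter peak of highest mean level. The rule found 67 genes among 8168 with a promoter peak in chicken, 69 of 8331 in quail, 62 of 7706 in duck and 62 of 8345 in zebra finch. In all, 73 symbols were found in at least 1 species, out of 13664 symbols with a promoter peak, and 53 were found in each of the 4 species. None of them lay on the assembled sequence that holds RPS6, which is the Z chromosome. The symbols missing from a species' CAGE table were not analysed there.

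The study compared male (ZZ) and female (ZW) fibroblasts, grown from the trunks of bird embryos to the fifth passage, to ask how the sexes differ in transcription. Cap analysis of gene expression (CAGE) sequences the capped 5′ ends of RNA, so that a promoter peak counts transcripts that start there whatever their length, and its values are tags scaled to the library's total (TPM). Chicken had female embryos 5 and 6 and male embryo 7, quail female embryos 1 and 3 and male embryo 2, and duck female embryo 1 and male embryos 2 and 3, each cultured once in DMEM/F12 and once in DMEM high glucose. Zebra finch had 3 female cultures and 1 male culture, all in DMEM high glucose. The labels name no engineered allele and no drug, and fetal bovine serum was in both media. RNA-seq, as fragments scaled to gene length and library total (FPKM), covered 1 female and 1 male culture of each species, in DMEM/F12 for quail and in DMEM high glucose for the rest. One sex was represented by a single embryo in every species, so that sex and embryo cannot be told apart, and the cultures of an embryo in both media are not independent embryos.

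Ribosomal proteins build the small (RPS) and large (RPL) subunits of the ribosome together with ribosomal RNA, and a ribosome holds a single copy of nearly every one. The stalk proteins RPLP0, RPLP1 and RPLP2 recruit the translation factors, and RPL5 and RPL11 bind 5S ribosomal RNA and, when ribosome assembly is disturbed, the p53 regulator MDM2. In mammals, their mRNAs begin with a terminal oligopyrimidine tract through which growth signals set their translation. Their genes rank among the most transcribed of growing cells, and processed copies of several of them are spread over mammalian genomes.

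CAGE depth was 7006061 to 12055369 tags per library over the 22 libraries. Of 15 fibroblast markers, 11 to 14 had a promoter peak, with summed levels of 13537 to 90114 TPM. Epithelial markers summed to at most 37.8 TPM, and nerve and neural crest markers to at most 13.4 TPM. Skeletal muscle markers reached 261 TPM in 1 zebra finch library, cartilage markers 559 TPM and macrophage and blood markers 629 TPM in quail libraries. In bulk samples, fewer cells of a type and less RNA per cell cannot be told apart.

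The ribosomal protein genes were among the most active promoters in all 4 species. Their median level was 1176 TPM in chicken, 1117 TPM in quail, 1065 TPM in duck and 1356 TPM in zebra finch, and that of all other genes was 32.98, 31.9, 31.3 and 30.97 TPM. Their median rank among all genes was 109, 99, 99 and 90. Of the 100 highest promoters, 32 in chicken, 36 in quail, 32 in duck and 33 in zebra finch belonged to them. Among the 10 highest promoters there were 1, 0, 0 and 3. Small and large subunit genes had medians of 1449 and 1057 TPM in chicken (27 and 33 genes), 1153 and 1147 TPM in quail (27 and 35 genes), 1139 and 1082 TPM in duck (23 and 32 genes), and 1575 and 1260 TPM in zebra finch (24 and 32 genes). These are levels of the genes over all libraries, and the gaps between the subunits are small beside the spread among genes.

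The stalk gene RPLP1 stood at the top in chicken and quail. In chicken its level was 3804 to 5152 TPM, with a median of 4111 TPM, over 6 libraries. In quail it was 2812 to 4296 TPM, with a median of 3506 TPM. In zebra finch RPLP1 measured 5949 TPM in the male culture and 3531, 4193 and 3915 TPM in the female cultures. RPS20, a small subunit protein of the head domain, was the highest there, with 6431 TPM in the male culture and 3846, 3900 and 3828 TPM in the female cultures. In duck RPS24 led with 3108 to 3634 TPM, ahead of RPLP2 (2800 ± 221 TPM, SD, n = 6) and RPLP1 (2691 ± 260 TPM, SD, n = 6). The spreads of these last 2 overlapped.

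Within the stalk, where RPLP1 and RPLP2 sit on the ribosome as dimers around RPLP0, the levels of the 3 genes were unequal. RPLP0 had 609 ± 47.1 TPM in chicken, 675 ± 121 TPM in quail, 426 ± 73.7 TPM in duck (SD, n = 6 each) and 547 ± 73.6 TPM in zebra finch (SD, n = 4). RPLP1 was above RPLP0 in every library of all 4 species, and so was RPLP2. The 5S partners differed as well. RPL5 had 315 ± 28.8 TPM in chicken and 700 ± 88.7 TPM in quail (SD, n = 6 each), 349 ± 43.5 TPM in duck (SD, n = 6) and 405 ± 37.3 TPM in zebra finch (SD, n = 4). RPL11 had 663 ± 67.3 TPM in chicken, 718 ± 106 TPM in duck (SD, n = 6 each) and 1387 ± 235 TPM in zebra finch (SD, n = 4). In quail its peak held 13.1 ± 5.51 TPM (SD, n = 6).

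**Figure D1:**
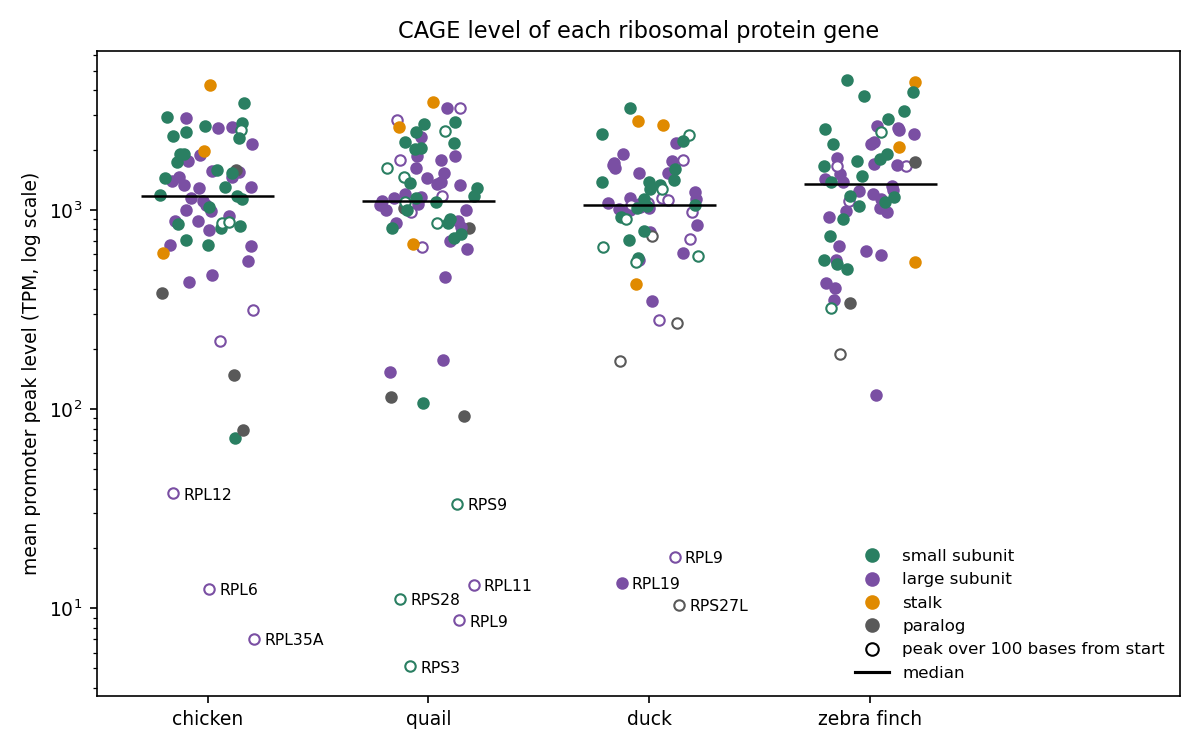
Mean promoter peak level of each ribosomal protein gene (TPM, log scale) in chicken, quail, duck and zebra finch, coloured by subunit, stalk or paralog. Open circles have their peak over 100 bases from the annotated gene start, bars are medians, and named genes lie under 60 TPM: 3 in chicken, 5 in quail, 3 in duck and none in zebra finch.

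A few genes fell far below the rest, most of them in 1 species while the same gene was abundant in others. In all, 14 entries were under 100 TPM, with 5 in chicken, 6 in quail, 3 in duck and 0 in zebra finch. RPS28, a small subunit protein, measured 7.87 and 23.7 TPM in quail female embryo 1, 9.32 and 3.57 TPM in male embryo 2, and 10.9 and 11.9 TPM in female embryo 3, in DMEM/F12 and DMEM high glucose. No quail library came near those of chicken, which held 2672 to 4626 TPM, or of zebra finch, which held 3263 to 4181 TPM. RPL35A of the large subunit measured 3.71 to 12.9 TPM in the 6 chicken libraries, 795 to 1427 TPM in quail, 907 to 1165 TPM in duck and 1536 to 2492 TPM in zebra finch. RPS3, which lines the mRNA entry channel, held 2.47 to 10.2 TPM in quail and 364 to 930 TPM in the other species. RPL6 of the large subunit held 9.27 to 15.3 TPM in chicken, against 838 to 1416 TPM in duck and 296 to 541 TPM in zebra finch. In quail RPL6 also differed between embryos, with 59.99 and 51.2 TPM in female embryo 1, 100 and 106 TPM in male embryo 2, and 357 and 387 TPM in female embryo 3.

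RNA-seq levels of most of these genes were not low. Of the 14 low entries, 11 had over 100 FPKM, the exceptions being the paralogs RPS27L in chicken and duck and RPL7L1 in quail. Chicken RPL6 had 1977 FPKM in the female and 1808 FPKM in the male library, rank 8 of the 67 genes by FPKM and rank 66 by CAGE. Quail RPS3 had 1343 and 856 FPKM, quail RPL11 1624 and 1158 FPKM, quail RPL9 1284 and 818 FPKM, and quail RPS28 1446 and 596 FPKM (female and male). Duck RPL19 had 1930 and 1313 FPKM and duck RPL9 1063 and 715 FPKM. Chicken RPL35A was at 131 and 132 FPKM and chicken RPL12 at 624 and 657 FPKM.

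The position of the peaks moved with these gaps. For 10 of the 14 low entries the peak lay over 100 bases from the annotated start of the gene, among them chicken RPL6 (850 bases downstream), chicken RPL35A (347 bases), quail RPS28 (468 bases), quail RPS3 (477 bases), quail RPL11 (437 bases) and quail RPL9 (1526 bases). The other 4 had their peak on the annotated start, duck RPL19 (13.4 ± 2.57 TPM, SD, n = 6) among them. Within 5 kb on the same strand, 7 of the 14 entries had another peak in the tables, and the highest of these held 27.6 TPM and belonged to ELOA beside quail RPL11. Near quail RPS3, a peak of 20.3 TPM was assigned to LOC116652805. The part of peak position in the gaps was not tested.

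Peaks far from the annotated start were not all low. Peaks over 100 bases from the start were found for 8 of 67 genes in chicken, 16 of 69 in quail, 19 of 62 in duck and 6 of 62 in zebra finch, or 11.9%, 23.2%, 30.6% and 9.68%, against 16.3%, 20.8%, 20.3% and 15.1% of the other genes. The highest of them reached 2523 TPM (chicken RPS15), 3256 TPM (quail RPL23), 2393 TPM (duck RPS2) and 2465 TPM (zebra finch RPS27). Duck RPL39, with a peak 1104 bases into the annotated gene, had 1146 ± 169 TPM (SD, n = 6). The median peak was 191, 173, 187 and 163 bases wide, beside 165, 162, 172 and 150 bases for other genes.

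**Figure D2:**
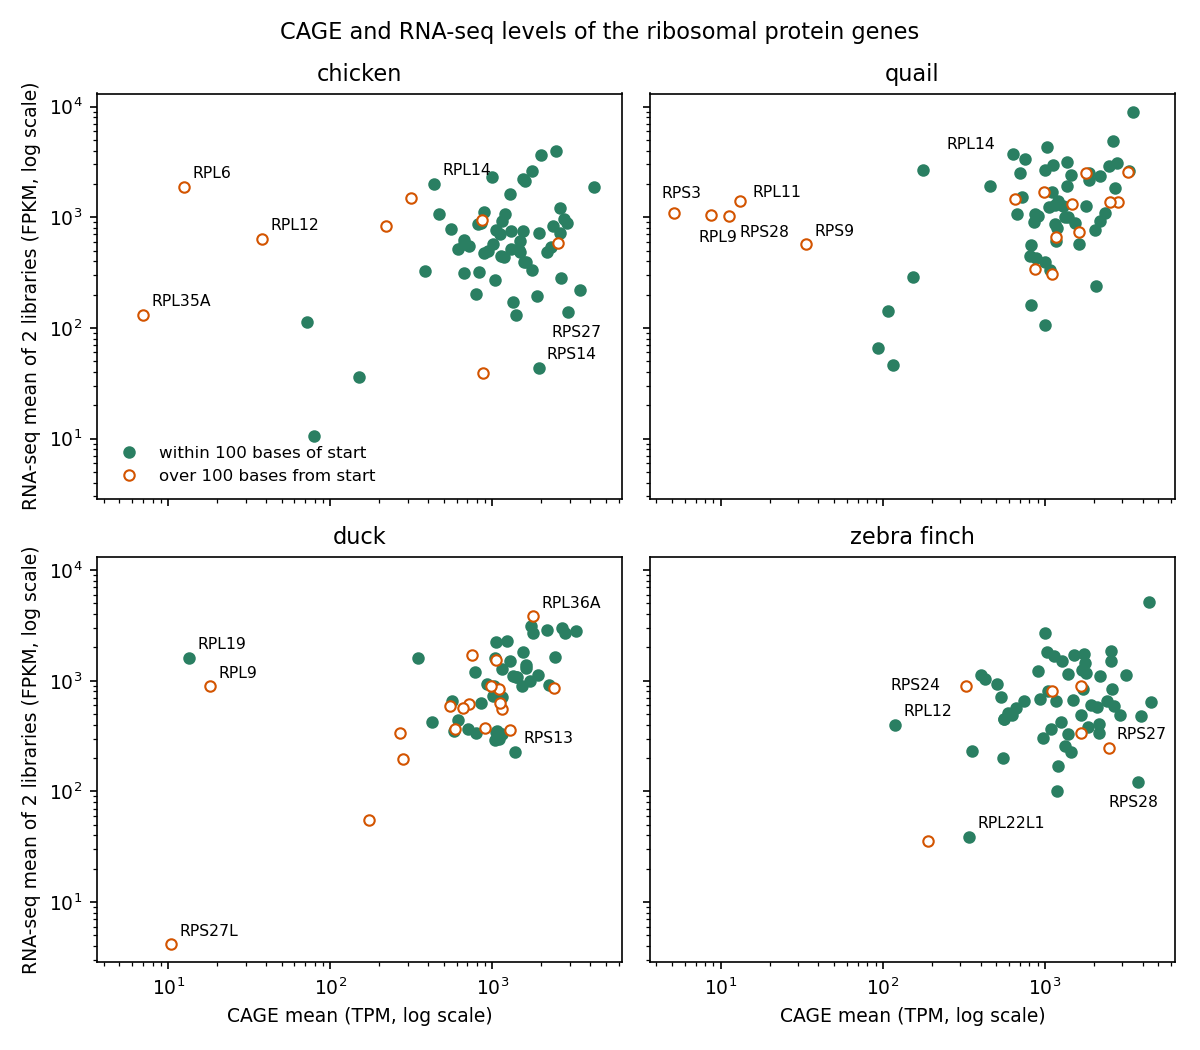
CAGE level (TPM, mean of all libraries, log scale) against RNA-seq level (FPKM, mean of 2 libraries, log scale) for each ribosomal protein gene in 4 panels, with open circles where the peak lies over 100 bases from the annotated start. At the far left, chicken RPL6 (12.5 TPM) and quail RPS3 (5.12 TPM) have FPKM values in the range of the abundant genes. Chicken RPL35A (7.03 TPM) has 131 FPKM, and the paralog RPS27L in duck (10.4 TPM) has 4.18 FPKM.

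Across the ribosomal protein genes of a species, log2 CAGE level and log2 FPKM had a Pearson r of 0.24 in chicken (67 genes), 0.30 in quail (69 genes), 0.54 in duck (62 genes) and 0.30 in zebra finch (62 genes), as a description, since the genes of a library share its depth and composition. Without peaks over 100 bases from the start, r was 0.44 over 59 chicken genes, 0.56 over 53 quail genes, 0.23 over 43 duck genes and 0.25 over 56 zebra finch genes. Spearman rho changed less, from 0.11, 0.33, 0.56 and 0.17 to 0.17, 0.35, 0.52 and 0.18. Of those whose CAGE rank was above their FPKM rank, chicken RPS14 had 1924 ± 179 TPM (SD, n = 6) and a mean of 43.7 FPKM. Zebra finch RPS28 had 3738 ± 467 TPM (SD, n = 4) and 122 FPKM, and duck RPS13 had 1381 ± 106 TPM (SD, n = 6) and 228 FPKM. The other way round, RPL14 had 436 ± 30.7 TPM and 2019 FPKM in chicken and 636 ± 74.3 TPM and 3764 FPKM in quail (SD, n = 6 each). RPL5 was below its FPKM rank in all 4 species, by 49, 40, 42 and 42 places in chicken, quail, duck and zebra finch, and its chicken peak lay 1019 bases before the annotated start. FPKM is scaled by the length of the annotated gene model, and CAGE is not scaled by length.

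Between species, the 53 shared genes had Pearson r of 0.25 to 0.48 for log2 CAGE level over the 6 pairs of species and 0.64 to 0.89 for log2 FPKM, again as a description. Chicken and quail had the highest value in FPKM, 0.89, and the lowest in CAGE, 0.25, where their Spearman rho was 0.57. Over the 26 genes whose peak lay within 100 bases of the start in all 4 species, the CAGE values were 0.40 to 0.57, and chicken and quail then had the highest.

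The species were compared in DMEM high glucose, with 3 cultures each of chicken, quail and duck and 4 of zebra finch, over 4232 shared symbols. The range of the 4 species' mean log2 levels had a median of 1.204 over the 53 genes and 1.41 over all shared symbols. It was under 1 for 16 genes (30.2%, against 28.3% of all symbols) and over 2 for 10 genes (18.9%, against 25%). RPL27, a large subunit protein, had the narrowest range, 0.20 on the log2 scale. Its levels were 1832, 1875 and 1522 TPM in chicken, 2105, 1528 and 1660 TPM in quail, 1509, 1568 and 1489 TPM in duck, and 2008, 1482, 1712 and 1607 TPM in zebra finch, which overlapped across species. RPL13, RPL7, RPL39 and RPLP2 followed, with ranges of 0.27, 0.39, 0.46 and 0.50. The widest were RPS28 (8.36), RPL35A (7.78), RPS3 (6.97), RPL11 (6.74) and RPL6 (6.28), all of them low entries in quail or chicken. Their largest pairwise differences passed the test, from 2.37e-09 for RPL35A in zebra finch against chicken to 2.39e-06 for RPL6 in duck against chicken (adjusted p, limma). These genes and pairs were picked for their range on the same values, so the p-values are not a separate test. The low peaks lay 347 to 850 bases from the annotated start. In RNA-seq, quail RPS28, RPS3 and RPL11 had means of 1021, 1099.5 and 1391 FPKM. Chicken RPL35A and RPL6 had 131 and 1892.5 FPKM.

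Genes other than those of widest range also differed. RPS20 had 1270 ± 98.8 TPM in chicken, 2540 ± 563 TPM in quail and 1404 ± 216 TPM in duck (SD, n = 3 each), and 4501 ± 1287 TPM in zebra finch (SD, n = 4), the 4 zebra finch cultures lying above all others. Zebra finch was higher than chicken by 1.79 ± 0.22 (SE) on the log2 scale (adjusted p = 3.64e-05, limma). RPS24, a small subunit protein, had 843 ± 103, 739 ± 70.6 and 3216 ± 165 TPM in chicken, quail and duck (SD, n = 3 each) and 324 ± 50.9 TPM in zebra finch (SD, n = 4). Zebra finch was lower than duck by −3.32 ± 0.16 (SE) on the log2 scale (adjusted p = 1.93e-08, limma). The zebra finch RPS24 peak lay 182 bases from the annotated start, and its FPKM was 620 and 1182. RPS2, at the mRNA entry site, had 2098 ± 249, 2141 ± 814 and 2252 ± 324 TPM in chicken, quail and duck (SD, n = 3 each). In zebra finch it had 152 TPM in the male culture and 772, 994 and 105 TPM in the female cultures, all below the other species but far apart from each other.

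Counts of genes that passed the test between species (limma, adjusted p under 0.05) were near the background of all symbols. Of the 53, 22 passed between quail and chicken (41.5%, all symbols 34.8%), 24 between duck and chicken (45.3%, 49.3%) and 23 between zebra finch and chicken (43.4%, 54.6%). For duck and quail 30 passed (56.6%, 51.1%), for zebra finch and quail 35 (66%, 55.5%), and for zebra finch and duck 26 (49.1%, 58%). The largest imbalance of direction lay between zebra finch and duck, with 19 higher and 7 lower in zebra finch, against 28.6% and 29.4% of all symbols. The median difference there was 0.34 over the 53 genes and −0.03 over all symbols. When only female cultures were used it fell to 0.13 and 14 of the 53 genes passed (26.4%, all symbols 37.2%), a fit that rests on 1 duck culture. TMM scaling moved the median of all symbols from −0.16 to 0.01 for duck minus quail and from −0.18 to 0.01 for zebra finch minus quail, where the median of the 53 genes then was 0.53 in place of 0.33. With 1 library left out that 0.33 ran from 0.18, without the male zebra finch culture, to 0.50, without the culture of quail female embryo 1.

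Paralogs were present as RPL22L1, RPL26L1, RPL7L1 and RPS27L, genes whose products resemble RPL22, RPL26, RPL7 and RPS27. RPL26L1 was at the level of the core genes, with 1593 ± 177 TPM in chicken, 1027 ± 409 TPM in quail, 742 ± 68.6 TPM in duck (SD, n = 6 each) and 1741 ± 493.2 TPM in zebra finch (SD, n = 4). RPL26 itself was not among the symbols found in any of the 4 species, so RPL26L1 could not be set against it. In quail, its 2 libraries from female embryo 1 held 525 and 518 TPM and the other 4 held 1129 to 1412 TPM, so that embryo stood apart from the rest. RPL22L1 reached 82.5 ± 12.01% of the RPL22 level in chicken, 178 ± 39.3% in quail, 35.2 ± 10.1% in duck (SD, n = 6 each) and 33.1 ± 12.9% in zebra finch (SD, n = 4). By FPKM the same ratio was 30.3%, 23.5%, 27.8% and 2.14%. RPL7L1, which acts in ribosome assembly, stood at 14.4% to 32.3% of RPL7 by CAGE and 4.48% to 8.31% by FPKM over the 4 species. RPS27L, which p53 induces in mammals, was at 2.71% of RPS27 in chicken and 0.47% in duck. In quail, with RPS27 at 107 ± 67.2 TPM (SD, n = 6), the ratio varied from 35.9% to 307% between libraries and followed the embryo. Female embryo 1 had 52.4 and 56.2 TPM of RPS27 and 161 and 147 TPM of RPS27L. Female embryo 3 had 224.5 and 149 TPM of RPS27 and 86.4 and 53.7 TPM of RPS27L. Male embryo 2 lay between them for both genes. By FPKM the RPS27L ratio was 7.53% in chicken, 32.6% in quail and 0.453% in duck. Quail RPS27 had 141 FPKM, beside 140 FPKM in chicken, where its CAGE level was 2927 TPM.

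The ribosomal protein promoters together took 8.07% to 9.64% of all tags in chicken, 7.496% to 9.97% in quail, 6.26% to 7.76% in duck and 8.45% to 11.8% in zebra finch. The means were 8.97 ± 0.605%, 8.81 ± 1.056%, 7.22 ± 0.569% (SD, n = 6 each) and 9.51 ± 1.59% (SD, n = 4). In DMEM high glucose, duck (6.94 ± 0.681%, n = 3) was lowest and its cultures lay below all those of chicken (8.72 ± 0.581%, n = 3), with an exact two-sided permutation p of 0.1, the smallest that 3 against 3 can give. The sums cover 62 genes in duck and 67 in chicken. Over the 53 genes found in all species these cultures overlapped, with 7.23%, 7.49% and 6.535% in chicken and 6.74%, 6.18% and 5.50% in duck. Between zebra finch and duck the exact p was 0.0571. None of the 6 pairs of species passed after adjustment, the smallest adjusted p of the exact tests being 0.3.

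**Figure D3:**
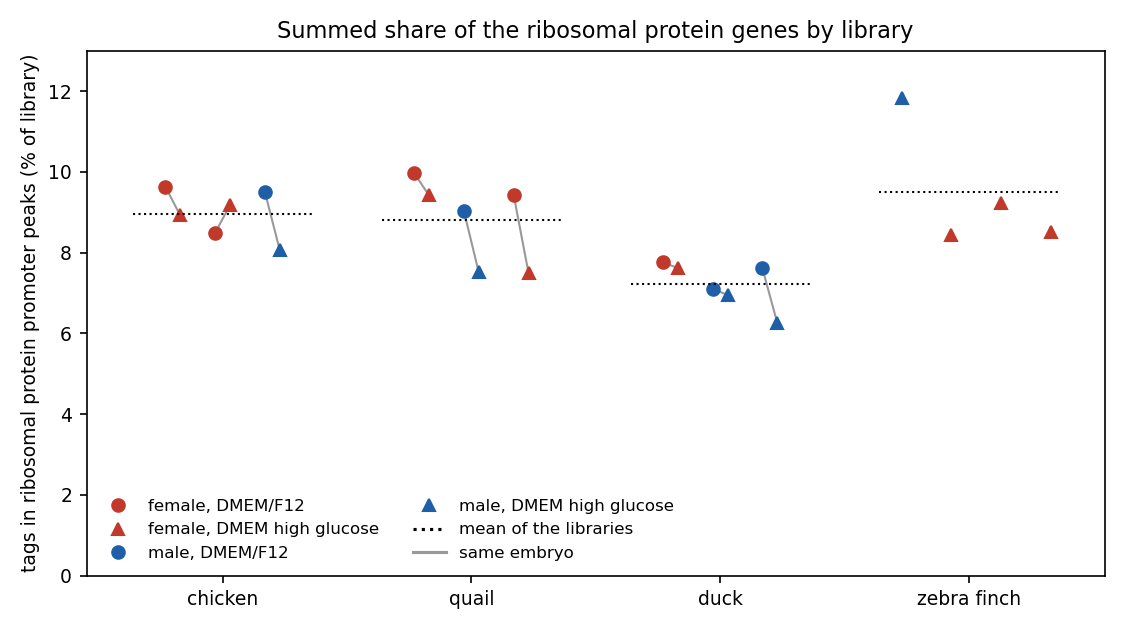
Share of all CAGE tags (%) in the promoter peaks of the ribosomal protein genes for each library, by species, with sex in colour, medium as symbol and grey lines joining cultures of an embryo. The share was lower in DMEM high glucose for 8 of 9 embryos, and the male zebra finch culture was highest at 11.8%.

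The medium was the next comparison, DMEM high glucose against DMEM/F12 from the same embryos. In quail the share fell from 9.97% to 9.42% in female embryo 1, from 9.04% to 7.51% in male embryo 2 and from 9.44% to 7.496% in female embryo 3. In duck it fell from 7.76% to 7.62%, from 7.10% to 6.95% and from 7.61% to 6.26% in embryos 1, 2 and 3. In chicken it fell from 9.64% to 8.92% in female embryo 5 and from 9.51% to 8.07% in male embryo 7, and rose from 8.49% to 9.18% in female embryo 6. Over the 9 embryos the difference was −0.793 ± 0.843 percentage points (SD, n = 9), lower in 8 of 9 (exact two-sided sign-flip permutation p = 0.0234).

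No single ribosomal protein gene passed the test between media, in a comparison where few genes did. With limma, 0 of 67 passed in chicken (0 of all genes, 0%), 0 of 69 in quail (7 genes, 0.084%) and 0 of 62 in duck (2 genes, 0.026%). At an unadjusted p under 0.05 the counts of ribosomal protein genes were also 0, 0 and 0, with 3.66%, 10.7% and 2.26% of all genes, and edgeR on the quail tags called 0, with 2 at an unadjusted p under 0.05 (2.9%, all genes 11.2%). With the embryo as a block the calls stayed at 0. At an unadjusted p under 0.05 there were then 0 (0%), 1 (1.45%) and 7 (11.3%), against 11.5%, 15.2% and 9.23% of all genes, so that the duck count was near the background and the others below it. Most of them shared a direction. The difference was below 0 for 57 of 67 genes in chicken (all genes 41.6%), 65 of 69 in quail (44%) and 55 of 62 in duck (64.2%). Medians were −0.06, −0.20 and −0.13 on the log2 scale, beside 0.03, 0.05 and −0.06 for all genes. Without the DMEM high glucose culture of the male embryo, the chicken median was 0.01.

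Among single genes, quail RPL35A had 947, 1427 and 1371 TPM in DMEM/F12 and 928, 984 and 795 TPM in DMEM high glucose, and the media overlapped (−0.45 ± 0.22, SE; adjusted p = 0.527, limma). Quail RPL13 had 1767, 1536 and 1573 TPM in DMEM/F12 and 1446, 1235 and 1126 TPM in DMEM high glucose, without overlap (−0.36 ± 0.18, SE; adjusted p = 0.544, limma). Duck RPL26L1 had 813, 775 and 820 TPM and then 682, 667 and 697 TPM (−0.23 ± 0.11, SE; adjusted p = 1.00, limma). Groups did not overlap, with DMEM high glucose lower, for 3 genes in chicken (4.48%, all genes 2.89%), 8 in quail (11.6%, 5.5%) and 9 in duck (14.5%, 5.23%). With DMEM high glucose higher there were 0 in each, against 6.53%, 11.3% and 2.36% of all genes. In quail, macrophage and blood markers (7 of 11 with a peak) summed to 14.5 to 28.1 TPM in DMEM/F12 and 155 to 629 TPM in DMEM high glucose, and cartilage markers (4 of 6) to 315 to 559 TPM and 9.75 to 256 TPM. Their part in the result was not tested.

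Between the sexes, ribosomal protein genes passed the test in duck alone of the 4 species, and there 2 did. They were RPL29 and RPL6, large subunit proteins, both lower in the male cultures (2 of 62 genes, 3.23%, with 4.39% of all genes called, 1.27% lower and 3.11% higher in male). In the sex comparisons, all genes include those on the sex chromosomes, and this group has none on the Z chromosome. Duck RPL29 (NC_051784.1, 15270607 to 15270891, minus strand, assembly ZJU1.0) had 1382 and 1566 TPM in female embryo 1, 784 and 790 TPM in male embryo 2, and 899 and 785 TPM in male embryo 3, in DMEM/F12 and DMEM high glucose. Its female cultures both lay above the 4 male ones, and the difference was −0.86 ± 0.12 (SE) on the log2 scale (adjusted p = 0.0084, limma). Duck RPL6 (NC_051787.1, 1871835 to 1871982, plus strand) had 1325 and 1416 TPM in the female cultures and 921, 838, 965 and 882 TPM in the male cultures. They did not overlap, and the difference was −0.60 ± 0.11 (SE, adjusted p = 0.0269, limma). The RPL6 peak lay 510 bases before the annotated start. By RNA-seq of female embryo 1 and male embryo 2, RPL6 had 1821 and 1270 FPKM and RPL29 319 and 268 FPKM.

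The duck calls rest on 1 female embryo. With 1 value per embryo neither passed (adjusted p = 0.392 for RPL29 and 0.504 for RPL6, limma), and without the DMEM high glucose culture of that embryo, the shallowest library, the values were 0.0906 and 0.17. Without any 1 of the other 5 libraries RPL29 passed, with an adjusted p of 0.0196 to 0.0372, and RPL6 did not, with 0.0596 to 0.0768. The test of whether the sex difference itself differed between duck and another species called neither gene (for RPL29 in duck against chicken −0.81 ± 0.24, SE; adjusted p = 0.231, limma). Over the 6 pairs of species, such tests called 0 of the 53 shared genes for quail against chicken (all symbols 1.42%), duck against chicken (0.449%), zebra finch against chicken (1.47%), duck against quail (1.58%) and zebra finch against duck (1.44%). Between zebra finch and quail they called 2 (3.77%, all symbols 2.95%), RPS20 among them. In the other species RPL29 differed by −0.04 in chicken, −0.24 in quail and 0.12 in zebra finch. The paralog RPL22L1 went the other way in duck, with 196 and 205 TPM in the female cultures and 325, 341, 288 and 264 TPM in the male ones (0.59 ± 0.13, SE; adjusted p = 0.0571, limma), without overlap.

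**Figure D4:**
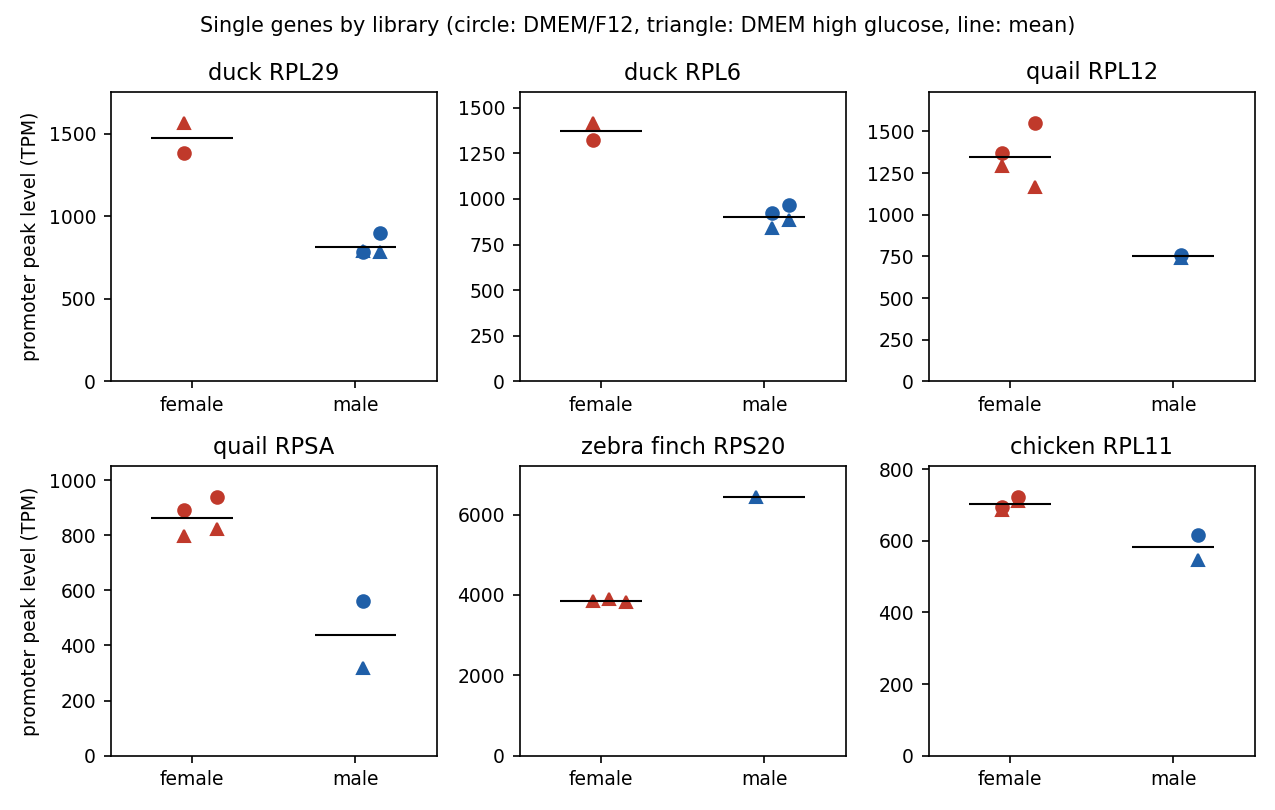
Promoter peak level (TPM) of 6 species and gene pairs by library, females in red and males in blue, with circles for DMEM/F12, triangles for DMEM high glucose and lines for means. Duck RPL29 and RPL6 (females 1325 to 1566 TPM, males 784 to 965 TPM) passed the limma test, and the chicken, quail and zebra finch genes did not.

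In chicken, quail and zebra finch no gene of the group was called (0 of 67, 0 of 69 and 0 of 62), with 2.69%, 0.144% and 0.288% of all genes called. Genes on the sex chromosomes are part of these shares of all genes and were not set apart. The counts at an unadjusted p under 0.05 were 3, 6 and 9, or 4.48%, 8.7% and 14.5%, against 14%, 11.7% and 8.3% of all genes. In duck this count was 6 (9.68%, all genes 19.2%). In quail and zebra finch edgeR on the tags called 0 and 0 of them (0.048% and 0.216% of all genes), with 6 and 8 at an unadjusted p under 0.05 (8.7% and 12.9%, all genes 10.8% and 8.06%). DESeq2 called 0 in zebra finch, with 228 of all genes (2.73%). In quail it called 4 (5.8%), near its share of all genes (351, 4.21%), among them RPSA, RPS29 and RPL12, which were lower in the male embryo. Quail RPL12, at the base of the stalk, had 1372, 1294, 1550 and 1164 TPM in the female cultures and 760 and 741 TPM in the male ones, without overlap (−0.83 ± 0.19, SE; adjusted p = 0.147, limma). Quail RPSA, also known as the laminin receptor, had 893, 796, 938 and 824 TPM in the female cultures and 561 and 317 TPM in the male ones (−1.03 ± 0.25, SE; adjusted p = 0.181, limma). In chicken the smallest p belonged to RPL6, at the low peak described above, and to RPL11. Chicken RPL11 had 694, 686, 722 and 710 TPM in the female cultures and 617 and 547 TPM in the male ones, without overlap (−0.27 ± 0.10, SE; adjusted p = 0.273, limma).

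As a group the genes leaned to the female side in the 3 species with both media and to the male side in zebra finch. The log2 difference, male minus female, was below 0 for 49 of 67 genes in chicken (all genes 49.4%), 48 of 69 in quail (38.1%) and 49 of 62 in duck (31.5%), and above 0 for 57 of 62 in zebra finch (52.5%). Medians were −0.06, −0.15, −0.16 and 0.44, against 0.00, 0.11, 0.13 and 0.03 for all genes. TMM scaling moved the all-gene medians of quail and duck to 0.00 and 0.01 and those of the ribosomal protein genes to −0.26 and −0.29, with 58 of 69 and 57 of 62 below 0. In chicken the median ran from −0.20 to 0.04 when 1 library was left out, and in quail from −0.27 to 0.02, so the sign there depended on 1 library. The values above 0 came from leaving out the DMEM high glucose culture of the male embryo, in chicken (0.04) and in quail (0.02). Groups did not overlap, with the male lower, for 7 of 67 genes in chicken (10.4%, all genes 12.2%), 7 of 69 in quail (10.1%, 7%) and 19 of 62 in duck (30.6%, 7.32%). With the male higher there were 0, 2 and 1, against 12.8%, 16.5% and 22.9% of all genes, those on the sex chromosomes included. Other lists also separated the sexes. In duck, fibroblast markers (11 of 15 with a peak) summed to 81900 to 90114 TPM in the female and 69605 to 77910 TPM in the male cultures, and cell cycle genes (14 of 20) to 305 TPM and 332 to 404 TPM. The median log2 difference of the duck fibroblast markers, male minus female, went the other way, at 0.23, with 1 called higher and 0 lower in male. In quail, cell cycle genes (17 of 20) summed to 379 to 582 TPM in the female and 633 to 778 TPM in the male cultures. Their part in the result was not tested.

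Zebra finch RPS20 had 6431 TPM in the male culture against 3828 to 3900 TPM in the females (0.74 ± 0.18, SE; adjusted p = 0.471, limma). With 1 male culture the male could lie outside the females for many genes. It lay above all 3 females for 49 of 62 genes of the group (79%, all genes 28.8%) and below all of them for 2 (3.23%, all genes 26%). Its summed share was 11.8% against 8.45%, 9.24% and 8.504%. Other genes with terminal oligopyrimidine mRNAs in mammals, such as translation factors (23 of 28 with a peak), summed to 20355 TPM in the male and 13890 to 15077 TPM in the females, and 0 of the 23 passed in either direction. Their median log2 difference, male minus female, was 0.31. In chicken, quail and duck that of this list was −0.10, 0.13 and 0.0005, beside −0.06, −0.15 and −0.16 for the ribosomal protein genes. Ribosome assembly factors (23 of 30 with a peak) summed to 3611 TPM in the male and 3386 to 3758 TPM in the females. Skeletal muscle markers (4 of 8) were at 2.03 TPM in the male and 22.8 to 261 TPM in the females, and fibroblast markers (13 of 15) at 14068 and 13537 to 20926 TPM. Their part in the result was not tested.

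**Figure D5:**
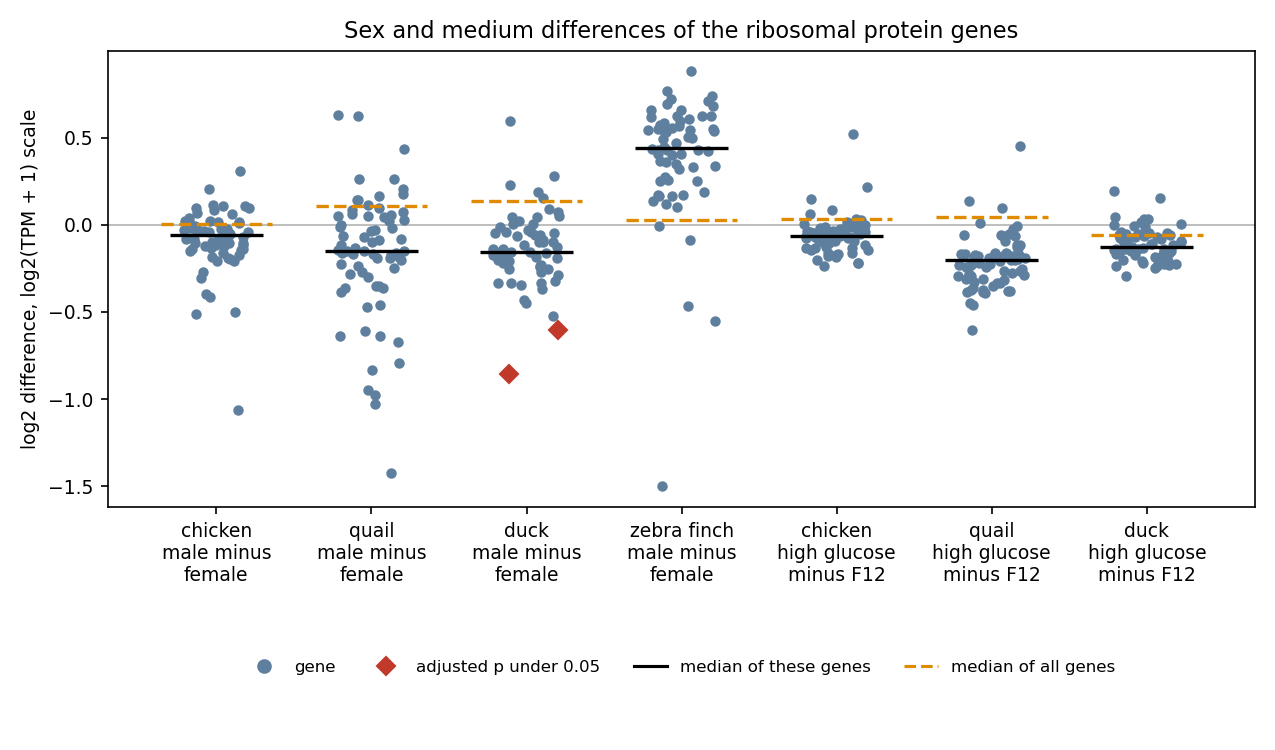
Log2 difference of each ribosomal protein gene (y axis, log2(TPM + 1) scale) between the sexes in 4 species and between the media in 3, with black bars for their medians and dashed lines for the median of all genes. The zebra finch genes lie around 0.44 and the others around −0.06 to −0.20, and the red diamonds are duck RPL29 and RPL6.

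RNA-seq, with 1 library per sex, had the same lean. FPKM was lower in the male library for 44 of 67 genes in chicken (65.7%, all genes 49.1%), 67 of 69 in quail (97.1%, 48%) and 62 of 62 in duck (100%, 54.2%), and higher in the library labelled male for 62 of 62 in zebra finch (100%, 49.2%). All genes here means those with a mean of at least 1 FPKM. The median log2 difference of the group was −0.06, −0.66, −0.59 and 0.52, and that of all such genes 0.00, 0.03, −0.03 and −0.01. The share of summed FPKM in the group was 13.6% and 13.1% in the chicken female and male libraries, 24.6% and 19.1% in quail, 17.9% and 13.4% in duck, and 10.9% and 15.1% in zebra finch. The chicken, quail and duck libraries come from embryos that also gave CAGE libraries, so they are a second measure of those embryos and not further embryos. The chicken male RNA-seq library carries the number of the DMEM high glucose culture of the male embryo. Without that culture the chicken CAGE median was 0.04, so the chicken results of both assays share it. In zebra finch the library numbers that the labels give to RNA-seq and CAGE pair opposite sexes, so the cultures were not matched. The paper describes the RNA-seq samples as drawn from the CAGE samples, and zebra finch had 1 male CAGE culture. The zebra finch RNA-seq is therefore not counted as a further male embryo either. The 85 genes with a peak on the sequence that holds CHD1W, a W chromosome gene, followed each library's own label, with 934.6 FPKM in the female and 11.7 FPKM in the male RNA-seq library, and 16480 to 20410 TPM in the female and 268.1 TPM in the male CAGE cultures.

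In the lists of related genes, calls between the sexes were few. Among ribosome assembly factors BRIX1 was higher in male chicken and in male duck, and NCL in male duck (1 of 26 and 2 of 24 with a peak, 0 lower), where 1 or 2 calls in a list of this size are close to the 2.69% and 4.39% of all genes called. Of RNA polymerase I genes, POLR1E was higher in male chicken and male duck (1 of 10 and 1 of 6, 0 lower). Of the other terminal oligopyrimidine genes BTF3 was higher in male duck (1 of 17), and 0 of 23 passed in chicken and 0 of 21 in quail. Of all duck genes, 3.11% were called higher in male. The chromosomes of BRIX1, NCL, POLR1E and BTF3 are not given here, so calls on the Z chromosome are not set apart. Of regulators of ribosome synthesis, such as the mTOR pathway, 0 of 9 to 14 passed in each species. Between the media 0 of these genes passed in chicken, quail or duck.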

How the data were processed

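The authors mapped reads with BWA 0.7.10-r789 and HISAT2 2.1.0, called CAGE peaks of at least 10 TPM in 1 library, and assigned them to genes with ChIPseeker 1.32.0, on assemblies galGal6, Coturnix_japonica_2.1, ZJU1.0 and bTaeGut2.pat.W.v2. The deposited CAGE values are tags scaled to the library's total (TPM, a form of RPM) per peak and library. The deposited RNA-seq tables give HTSeq 2.0.1 read counts per gene and FPKM from the authors. Depth, from the step between values in a library, was 7006061 to 12055369 tags. A further check of whole tags passed for quail and zebra finch and not for chicken and duck, where the depths are therefore estimates and no count test was run.

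Each species was fitted with limma 3.58.1 (R 4.3.3, with trend) on log2(TPM + 1) over all promoter peaks, for sex and for medium, with Benjamini-Hochberg adjustment over all peaks. Fold changes are on that scale, which understates changes of low genes. Species were compared over 4232 shared symbols in the DMEM high glucose cultures. A gene passed at an adjusted p under 0.05. Alternatives were other pseudocounts, TMM scaling, a minimum mean of 10 TPM, peaks summed per gene, ranks, each library left out, and edgeR 4.0.16 and DESeq2 1.42.0 on the tags of quail and zebra finch. Scripts were tested on simulated data. The labels give cultures of an embryo in both media 1 number, and their deviations correlated at 0.412 to 0.776 in all 9 pairs. The main fits for sex and for medium had no block, and embryo served as the block only in alternative fits. Since cultures of an embryo were counted as separate samples, p-values for sex are too small. Genes were named as the 5 highest and 5 lowest per species, those called or else the 2 of smallest p per comparison, the 5 widest and 5 narrowest between species, the 3 that differed most in rank between CAGE and RNA-seq in each direction, the paralogs, and the stalk and 5S genes, of which a part is described. RPS29, the genes of distant peaks that are none of these, and the called genes of the lists were named after their values were seen. Some members' single results are not reported here. The members and lists were chosen with earlier results of these data known.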

Additional observations from a re-analysis of the deposited data

Results flagged for a closer look

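Among single genes, a library that stood apart from the other 3 of its group by Dixon's 95% criterion was found for 10 of 110 groups of 4 libraries examined, where chance gives about 1 in 20. Over all ribosomal protein genes the share was 7.46%, 7.25%, 8.06% and 12.9% in the chicken female, quail female, duck male and zebra finch groups, against 5.78%, 7.03%, 4.19% and 7.94% of all genes. In chicken, the highest female value of RPL12 was 108.7 TPM, in female embryo 6 in DMEM high glucose, with 23.1 to 29.2 TPM in the other 3. In quail, the highest female value of RPL11 was 22.68 TPM, and the lowest female values of RPL34 and RPLP2 were 2767 and 2172 TPM. In duck, the highest male value of RPL29, one of the genes called between the sexes, was 898.5 TPM, and the lowest male values of RPL39, RPL7 and RPLP0 were 810.0, 336.9 and 292.2 TPM. In zebra finch the male culture was the one apart, with 2492 TPM for RPL35A and 6431 TPM for RPS20, so its distance and the sex difference are the same measurement.

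The difference between the sexes itself differed between zebra finch and quail for RPS20. The log2 difference, male minus female, was larger in zebra finch by 1.091 (SE 0.262, adjusted p = 0.0269, limma), with 6431 TPM in the zebra finch male and 3828 to 3900 TPM in the females, and 2617 and 1959 TPM in the quail male embryo and 2579 to 3084 TPM in the females. In all, 2 of 53 genes passed there (3.77%, all symbols 2.95%), and 0 of 53 passed in the other 5 pairs of species, where 0.449% to 1.58% of all symbols did. The RPS20 difference rests on 1 male embryo per species.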

How the results depend on the processing

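Of 212 alternative values of 34 results, apart from those with 1 library left out, 196 were kept under a fixed rule. A count of genes was kept when it stayed within a set ratio of the main count. Any other value was kept when it moved by less than the replicate spread. Direction was not part of the rule. In quail, DESeq2 called 4 genes between the sexes (5.8%), with 351 of all genes (4.21%). In duck, TMM scaling took the sex median to −0.29, and 1 value per embryo left 0 genes called. The zebra finch sex median was 0.41 with edgeR and 0.41 with DESeq2. TMM scaling gave zebra finch minus quail a median of 0.53. With female cultures only, 14 genes passed in duck minus chicken and 14 in zebra finch minus duck (26.4% each, all symbols 29.5% and 37.2%), and the medians were −0.18 for zebra finch minus chicken, 0.14 for duck minus quail, 0.12 for zebra finch minus quail and 0.13 for zebra finch minus duck. By rank within a library 16 genes passed in zebra finch minus duck (30.2%, all symbols 58.6%). With only the 53 shared genes, the summed share was 7.30% in chicken, 6.92% in quail and 6.38% in duck, by construction, since fewer genes were summed. The causes of the others were not tested.

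With 1 library left out, the sex medians ran from −0.1956 to 0.04333 in chicken, −0.27 to 0.02 in quail, −0.18 to −0.07 in duck and 0.42 to 0.47 in zebra finch, where no fit was possible without the male. The duck sex calls ran from 0 to 1, RPL29 from −0.95 to −0.77 and RPL6 from −0.65 to −0.56. Medium medians ran from −0.11 to 0.01 in chicken, −0.34 to −0.14 in quail and −0.20 to −0.06 in duck. The duck minus quail median ran from −0.1935 to 0.05688, the value above 0 coming without the culture of male embryo 3. With embryo as the replicate block for the media, 0 genes were called in each species and 0, 31 and 1 of all genes in chicken, quail and duck. edgeR and DESeq2 were not run in chicken and duck, where whole tags were not accepted as recovered. The estimated 7006061 tags of the shallowest library limit the precision for genes of a few TPM.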
